A study of Homo sapiens with 4 samples.

Results

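The 120 genes described here had an FPKM at least 4-fold lower with the BET inhibitor JQ1 than with its solvent DMSO. This held both in the absence and in the presence of the lectin PHA. FPKM stands for fragments per kilobase of exon length, scaled to the size of the library. The genes were chosen from 4 RNA-seq libraries of Jurkat T cells, a human T lymphoblast line of wild-type genotype. All cells were treated for 24 h. JQ1 was used at 0.5 μM and replaced by DMSO in its control, PHA was used at 150 ng/ml, and the libraries are called DMSO, JQ1, DMSO with PHA and JQ1 with PHA, 1 library for each. Of 50868 identifiers, 11503 averaged 1 FPKM or more across all 4 libraries, and these are called the genes tested. Among them, 197 (1.71%) were at most 0.25 of the DMSO level without PHA and 199 (1.73%) with PHA, after 0.1 was added to each FPKM. Both limits were met by 122 (1.06%), of which GRAP2 and IGLL1 were left out by name. Because the FPKM ratios chose the members, they are given as a description. With 1 library a condition there is no replicate check and no test was made, and the 95% exact (Clopper-Pearson) intervals below cover counting error only.

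BET proteins bind acetylated lysines on histones through their bromodomains and help to bring the elongation factor P-TEFb to promoters and enhancers. JQ1 occupies the bromodomain pocket and displaces these proteins from chromatin. PHA crosslinks glycoproteins of the T-cell surface and is used as an activating stimulus. Jurkat cells derive from a T-cell acute lymphoblastic leukemia and keep markers of immature cortical thymocytes, such as the CD1 molecules and the recombinase genes.

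Total counts lay between 18620954 and 19685401 a library. HEXIM1, an inhibitor of P-TEFb whose rise is a usual marker of BET inhibition, was checked first. Its FPKM was 36.2 with DMSO, 109 with JQ1, 34.6 with DMSO and PHA and 104 with JQ1 and PHA, which is 3.0-fold (2.87 to 3.14) and 3.02-fold (2.88 to 3.16) higher with JQ1. All 11 T-lymphoblast markers on the list used here were among the genes tested. The summed FPKM of the 6 myeloid markers was at most 0.183 in any library, that of the 5 erythroid markers at most 0.148, that of the 5 fibroblast markers at most 0.675 and that of the 5 NK-cell markers at most 2.08, with 12 to 92 NKG7 counts. Of the B-cell markers, CD79A, itself a member, and BLK were among the genes tested. In bulk RNA, fewer cells of a type and less RNA per cell cannot be told apart.

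The members had a median level in the DMSO libraries near that of the genes tested. The rule bears on this level, since a member low with JQ1 reaches a mean of 1 FPKM mainly through its DMSO libraries. Other genes tested need no such DMSO level. Most members were low but still counted with JQ1, with a median of 37.5 counts in the JQ1 library and 40 in that with JQ1 and PHA. Their median FPKM was 4.71 with DMSO, 0.547 with JQ1, 4.39 with DMSO and PHA and 0.580 with JQ1 and PHA. Over all genes tested, the median was 4.92, 4.87, 5.01 and 4.79 in the same order. The mean of both DMSO libraries was under 10 FPKM in 92 members (76.7%, against 71.6% of the genes tested) and at least 20 in 16. With JQ1, 85 members fell under 1 FPKM, and 78 did so with JQ1 and PHA. The members took 0.661% of all counts with DMSO and 0.0925% with JQ1, and 0.610% and 0.0859% with PHA. MYO7B, CD1E, ALDH1A2, RAG1 and BCAT1 together made up 42.7% of the members' counts in the DMSO library.

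The median ratio was a fall by 2.84 on the log2 scale without PHA (7.15-fold) and by 2.77 with PHA (6.83-fold), against -0.01 and -0.02 for all genes tested, of which 8.65% without PHA and 8.0% with PHA were at least 2-fold lower. The falls ranged from -2.05 to -5.85 without PHA and from -2.01 to -5.95 with PHA. At least an 8-fold difference in both comparisons was found for 38 members. Counting error alone left the upper bound of the ratio at or below 0.25 for 104 members without PHA, 94 with PHA and 87 in both. For 101 members the sizes of the falls without and with PHA lay within 2-fold of each other, for 11 the fall was over 2-fold larger without PHA and for 8 it was over 2-fold larger with PHA. In all 120 members both JQ1 libraries lay below both DMSO libraries, an order that 38.5% of the genes tested also had. The rule fixes this order within each pair of libraries and leaves little room for another across pairs.

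**Figure D1:**
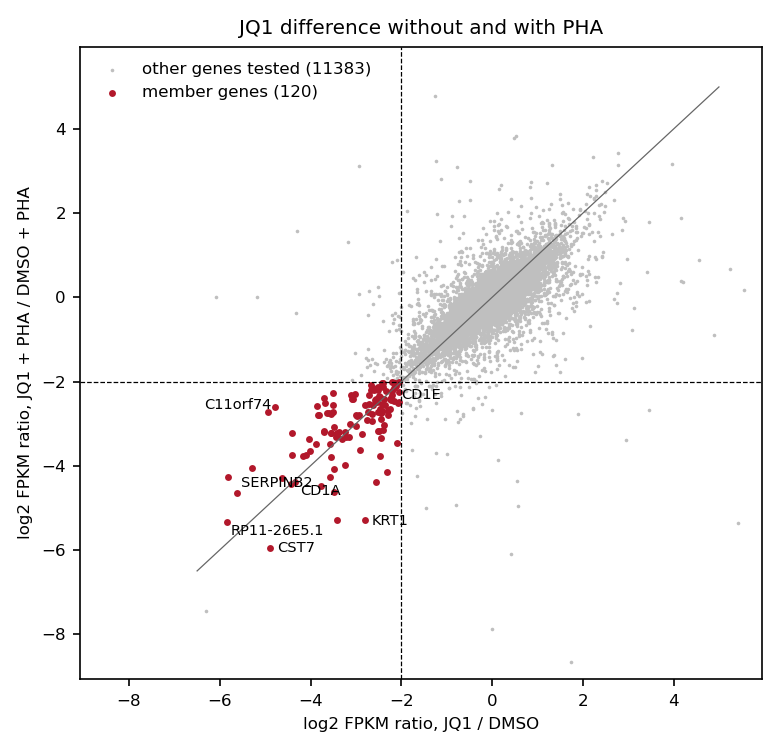
Each point is 1 of the genes tested, placed by its log2 FPKM ratio (0.1 added) of JQ1 to DMSO without PHA (x axis) and with PHA (y axis). Red points are the 120 members, grey points the other 11383 genes tested, GRAP2 and IGLL1 among them, dashed lines mark a 4-fold fall, and the members reach -5.85 on the x axis and -5.95 on the y axis.

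The limit cut through a continuous range of values. The members just inside it by the smaller of both falls were RP11-284N8.3 (-2.42 without PHA and -2.03 with PHA), the noncoding RNA SNHG4 (-2.05 and -2.01) and the interferon-induced OAS3 (-2.20 and -2.01). Just outside were AEBP1 (-2.1 and -1.99), the purinergic channel P2RX5 (-1.99 and -2.75) and the phosphatase PTPN22 (-1.97 and -2.07).

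The CD1 genes belong to a family known for presenting lipid antigens and mark cortical thymocytes. They were among the most abundant members, with CD1E, CD1B and CD1A the 3 highest by the mean FPKM of both DMSO libraries. For CD1E the FPKM came to 91.0 in DMSO, 21.0 in JQ1, 70.7 in DMSO with PHA and 16.3 in JQ1 with PHA. CD1B stood at 70.2, 13.1, 57.3 and 9.73 in the same order, and CD1A at 62.1, 2.96, 55.2 and 2.54. CD1C had 29.6, 3.03, 42.2 and 2.58. All 4 genes were low in both JQ1 libraries, but not to the same extent. CD1A was 21.0-fold lower without PHA (17.5 to 25.4) and 21.8-fold lower with PHA (17.8 to 26.9), while CD1E was 4.33-fold lower (4.18 to 4.50) and 4.34-fold lower (4.16 to 4.53). The intervals of CD1A and CD1E, which cover counting error only, did not overlap.

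The 4 CD1 members lie together on chromosome 1, between 158254137 and 158357553 on GRCh38, in the order CD1A, CD1C, CD1B and CD1E. CD1D, which presents lipids to NKT cells and lies next to CD1A, is no member. Its FPKM of 15.1, 5.14, 12.2 and 5.58 gave a difference of 2.93-fold (2.51 to 3.42) without PHA and 2.18-fold (1.87 to 2.55) with PHA. The noncoding RP11-404O13.4 and RP11-404O13.5, between CD1D and CD1A, had log2 ratios between -0.62 and -0.36.

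RAG1, the catalytic subunit of the V(D)J recombinase, lies on chromosome 11 from 36510709 to 36593156 and carried 8591 counts with DMSO, 824 with JQ1, 2471 with DMSO and PHA and 234 with JQ1 and PHA. Each JQ1 library was below its DMSO library, and each PHA library was below the library without PHA. The difference with JQ1 was 10.9-fold (10.2 to 11.7) without PHA and 9.99-fold (8.73 to 11.5) with PHA. Its partner RAG2, on the opposite strand, had 1734, 352, 700 and 202 counts, which is 5.15-fold (4.59 to 5.79) and 3.28-fold (2.80 to 3.85) lower. C11orf74, now IFTAP, starts 1337 bases beyond the end of RAG1 on the same strand and had 325 counts with DMSO, 3 with JQ1, 67 with DMSO and PHA and 3 with JQ1 and PHA. This is 113-fold (38.4 to 552) and 21.1-fold (6.93 to 105) lower. TRAF6, on the other side of RAG1, had log2 ratios of 0.34 and 0.45. Exons of RAG1 and of C11orf74 overlap exons of RAG2 on the opposite strand, and the strand setting of the counting is not given in the sources used here, so reads of these genes may have been shared.

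**Figure D2:**
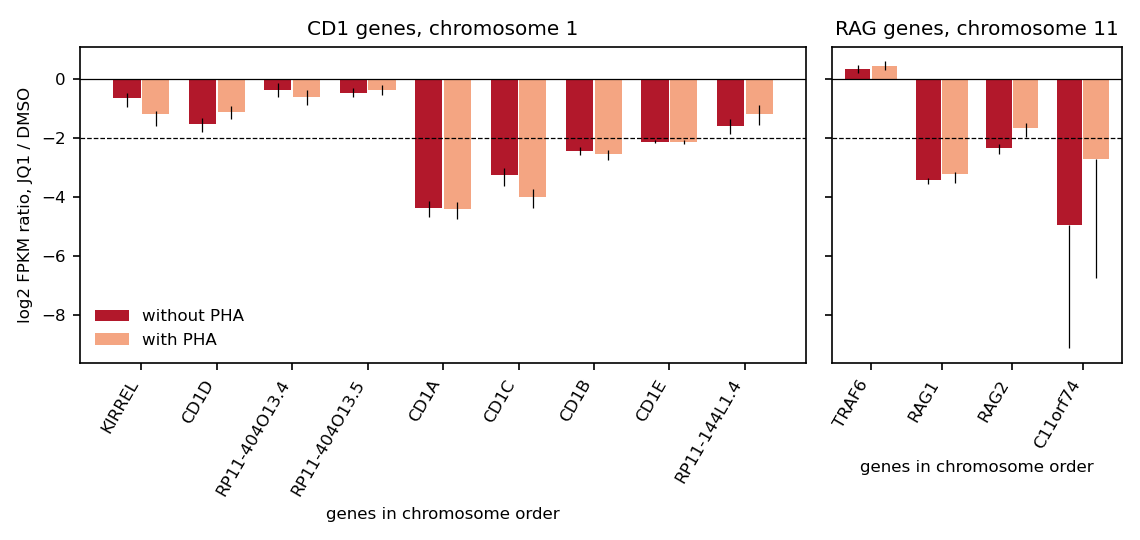
Bars give the log2 FPKM ratio of JQ1 to DMSO without PHA (dark) and with PHA (light) for genes with over 20 counts in both DMSO libraries together, in chromosome order around the CD1 genes (left) and the RAG genes (right), and lines are 95% exact intervals of the ratio of shares of counts, drawn only downwards for C11orf74, whose bars the added 0.1 puts above their intervals. The ratios of CD1A (-4.35 and -4.39) stand beside -0.46 and -0.36 for RP11-404O13.5, and those of RAG1 (-3.41 and -3.22) beside 0.34 and 0.45 for TRAF6.

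A group of 14 members code for receptors and ligands of lymphocytes, with falls from -2.29 to -4.16 without PHA and from -2.53 to -4.48 with PHA. Of the 14, 8 were at least 8-fold lower in both comparisons, against 38 of all 120 members. Such counts by role describe the falls that chose the members, in roles assigned by hand after the values were seen. CD2, an adhesion receptor of T cells, had 21.4 FPKM in DMSO, 4.31 in JQ1, 28.2 in DMSO with PHA and 3.96 in JQ1 with PHA. Of its relatives in the SLAM family, CD84 had 6.42, 1.13, 11.9 and 1.25, and CD244 had 173, 6, 235 and 3 counts. CD244 was 30.2-fold lower (13.6 to 83.3) without PHA and 74.1-fold lower (25 to 362) with PHA. These receptors were low in both JQ1 libraries whether or not PHA was present.

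PVRIG, an inhibitory receptor for a nectin, had an FPKM of 14.0, 0.687, 13 and 0.856 and was 20.4-fold lower (14.0 to 31.0) and 15.2-fold lower (10.7 to 22.3). TNFRSF4, the costimulatory receptor OX40, had an FPKM of 2.08, 0.149, 2.30 and 0.196, and TNFRSF8, or CD30, had 397, 19, 411 and 31 counts. The adhesion molecule PECAM1 had an FPKM of 14.0, 1.65, 19.1 and 2.22, and the G-protein-coupled receptor P2RY8 had 18.8, 3.35, 22.9 and 3.01. CNR2, the cannabinoid receptor of immune cells, had 647, 48, 950 and 56 counts. CD79A, a signalling chain of the B-cell receptor, had 343, 51, 304 and 46 counts, with MS4A1, PAX5 and CD79B at 4 counts or fewer in every library. The remaining 4 receptors and ligands (GPA33, TMIGD2, RAET1E and CD40LG) had an FPKM of at most 0.662 with JQ1 and of at most 2.18 with JQ1 and PHA.

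A group of 10 members act as cytotoxic, proteolytic or innate effectors or as their inhibitors. CST7, which codes for the cathepsin inhibitor cystatin F, had 50 counts with DMSO and 111 with DMSO and PHA, and was at 0 in both JQ1 libraries. Set against a floor of 3 counts a library, this is at least 17.4-fold lower without PHA and at least 35.0-fold lower with PHA. Such a floor leaves out the counting error of the DMSO library, and the exact interval of the log2 ratio, which includes it, has its upper end at -3.77 without PHA and -4.81 with PHA. SERPINB2, an inhibitor of plasminogen activators, had 382, 0, 252 and 2 counts, at least 133-fold lower by the same floor without PHA (upper end of the log2 interval -6.75) and 119-fold lower (32.7 to 990) with PHA. C9, of the terminal complement complex, had 321, 13, 213 and 9 counts. The granule proteases GZMA, with 169, 15, 304 and 28 counts, and GZMK, with 55, 10, 75 and 10, lie side by side on chromosome 5, between 55024253 and 55110252. CTSG, a protease of myeloid granules, had 421, 30, 199 and 33 counts. MLKL, GBP1, OAS3 and APOBEC3C, which act in necroptosis or antiviral defence, had an FPKM between 3.83 and 9.99 in the DMSO libraries and between 0.421 and 1.61 in the JQ1 libraries.

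The 12 adaptors, G proteins and signalling enzymes fell by a median of 2.49 without PHA and 2.72 with PHA. GNA15, a G-protein alpha subunit of blood cells, had an FPKM of 27.9, 4.69, 24.8 and 4.38. The adaptor SLA2, a negative regulator of T-cell receptor signalling, had 17.2, 4.06, 19.4 and 4.0, and was 4.23- and 4.86-fold lower by the shares of counts. The adaptor DOK2 had 213, 34, 429 and 54 counts, and RASGRP2, which activates the GTPase RAP, had 465, 66, 530 and 92. The phosphatase PTPN3 had 1152 counts with DMSO and 55 with JQ1, and 903 and 51 with PHA, which is 21.9-fold (16.7 to 29.3) and 16.7-fold (12.6 to 22.7) lower.

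Metabolic enzymes and carriers were 11 of the members. Of these, 1, BCAT1, was at least 8-fold lower in both comparisons, against 38 of all 120 members, a count that again describes the falls that chose the members. BCAT1, which transaminates branched-chain amino acids, had 3608, 284, 3444 and 315 counts and was 13.3-fold lower (11.8 to 15) and 10.3-fold lower (9.21 to 11.6). ALDH1A2, which makes retinoic acid, had an FPKM of 28.3, 4.19, 25.3 and 3.76, and the same 6.74-fold (6.38 to 7.13) and 6.73-fold (6.34 to 7.15) difference in both comparisons. MTHFD1L, of mitochondrial folate metabolism, had 14.8, 2.4, 12.2 and 2.16. NME1, a nucleoside diphosphate kinase, had 19.8, 3.63, 16.6 and 3.75, although reads of NME1 may be shared with the readthrough gene NME1-NME2. PYCR1, of proline synthesis, had 3.80, 0.356, 2.89 and 0.463.

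Of the genes for RNA processing, nuclear import and transcription, GTF3C6, a subunit of the RNA polymerase III factor TFIIIC, had the highest level, with an FPKM of 53.1, 9.29, 47.6 and 10.8. The nucleolar protein CCDC86 had 31.3, 5.1, 24.9 and 5.34. Both were 4.40- to 6.13-fold lower by the shares of counts. IPO4, an importin, had 8.16, 0.944, 6.56 and 0.845. Of its exon bases, 68.7% are shared on the same strand with ENSG00000259522, so reads may be divided between them. That gene had 384, 466, 444 and 424 counts. The tRNA deaminase subunit ADAT2 had an FPKM of 5.45, 1.1, 5.61 and 1.12. The transcription factors BATF3, HOXB7 and NFIX fell by 2.04 to 2.39 on the log2 scale over both comparisons. CCND2, a cyclin of the G1 phase, had 663, 99, 531 and 101 counts.

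Several members are better known from other tissues. Of 10 such genes for receptors, channels and secreted proteins, 6 were at least 8-fold lower in both comparisons, against 38 of all 120 members. This count too describes the falls that chose the members. CHI3L2, a secreted chitinase-like protein, had 30.5 FPKM in DMSO, 2.47 in JQ1, 58.0 in DMSO with PHA and 2.89 in JQ1 with PHA. It was 12.3-fold lower (11 to 13.9) without PHA and 20-fold lower (17.9 to 22.4) with PHA. BMP10, a growth factor of the heart, had 166, 0, 78 and 1 counts, at least 57.9-fold lower by the floor of 3 counts without PHA, with an upper end of the log2 interval at -5.54. TSHR, the thyrotropin receptor, had 1267, 47, 563 and 43 counts and was 28.2-fold lower (21.1 to 38.6) and 12.4-fold lower (9.08 to 17.3). MYO7B, a myosin of the intestinal brush border, is grouped with the genes for cytoskeleton and membrane and is not among these 10. It had 16933, 2106, 9435 and 1645 counts, the most of any member in the DMSO library.

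**Figure D3:**
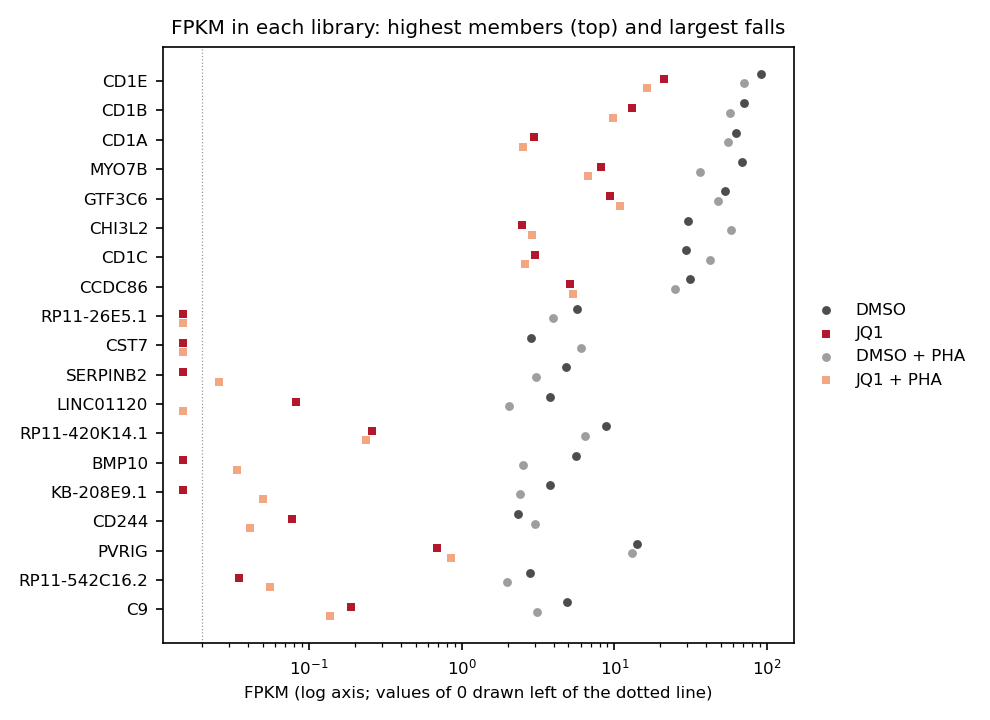
FPKM on a log axis in each of the 4 libraries for the 8 members with the highest mean of both DMSO libraries (top) and the 12 with the largest fall by the smaller of both falls, with CD1A in both sets and drawn once, and ENSG00000253926 drawn under its clone name as the uppermost of the largest falls. In every row the square points of the JQ1 libraries lie left of the round points of the DMSO libraries, and values of 0 are drawn left of the dotted line.

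Noncoding RNAs and pseudogenes made up 27 members. By GENCODE release 44, 19 members (15.8%) are lncRNA genes, against 7.39% of the genes tested, 93 (77.5%) are protein-coding, against 82.5%, and 5 are not in that release. The lncRNA gene ENSG00000253926 on chromosome 8 had 30, 0, 22 and 0 counts and was at least 10.5-fold and at least 6.94-fold lower by the floor of 3 counts, with upper ends of the log2 interval at -3.0 and -2.37. LINC01120 had 133, 3, 75 and 0 counts. RP11-420K14.1, a pseudogene on chromosome 19, had 227, 7, 173 and 6, and its neighbour RP11-678G14.3 had 263, 15, 173 and 11. KB-208E9.1 on chromosome 22 had 77, 0, 51 and 1 counts. The gene tested nearest to it is IGLL1, 1 of the genes left out by name, with 7.755 kb between their lower coordinates.

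Among the other protein-coding members are some that cannot be fully separated from another gene. RP11-542C16.2 had 153, 2, 114 and 3 counts, but most of its exon bases are shared with NEURL4 or GPS2 on the same strand. CXorf49 and CXorf49B are copies whose annotated transcripts are identical over their last 1000 bases, and had 156, 12, 82 and 5 counts and 128, 8, 64 and 7 counts. The readthrough genes TGIF2-C20orf24, with 46, 0, 41 and 5 counts, and PPAN-P2RY11, with 538, 32, 768 and 116, share exons with the genes they join. Of the 115 members with exons in the annotation, 28 had an exon that overlapped one of another counted gene, 13 on the same strand and 18 on the opposite strand, and in 7 the overlap covered at least 50% of the exon bases. Without these 28, 92 members are left.

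The bases before the transcription start of the members differed from those of most genes tested in their CpG content. CpG-rich promoters are common among genes used in most cells, and CpG-poor promoters among genes restricted to some tissues. The lines below give the 150 bases before the RefSeq start on GRCh38.p14, 5′ to 3′ on the gene's strand, with every CpG in capitals. They show 4 members with few CpG and 3 with many, not the extremes of all members. These were chosen after their values were seen, from members whose window lies outside the gene as the files delimit it. The windows are CD244 at chr1:160862888-160863037 (minus strand), CNR2 at chr1:23913363-23913512 (minus), GZMA at chr5:55102496-55102645 (plus), MYO7B at chr2:127535533-127535682 (plus), ADAT2 at chr6:143450696-143450845 (minus), SFXN4 at chr10:119165693-119165842 (minus) and TDRD9 at chr14:103928306-103928455 (plus).
CD244: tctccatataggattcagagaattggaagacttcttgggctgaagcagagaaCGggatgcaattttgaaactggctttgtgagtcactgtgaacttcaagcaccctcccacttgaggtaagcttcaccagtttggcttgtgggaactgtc
CNR2: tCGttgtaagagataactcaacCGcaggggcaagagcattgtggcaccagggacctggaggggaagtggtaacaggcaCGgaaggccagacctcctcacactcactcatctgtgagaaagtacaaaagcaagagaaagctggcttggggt
GZMA: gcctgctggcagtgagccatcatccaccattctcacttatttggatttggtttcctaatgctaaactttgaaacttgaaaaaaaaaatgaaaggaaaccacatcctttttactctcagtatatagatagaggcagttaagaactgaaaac
MYO7B: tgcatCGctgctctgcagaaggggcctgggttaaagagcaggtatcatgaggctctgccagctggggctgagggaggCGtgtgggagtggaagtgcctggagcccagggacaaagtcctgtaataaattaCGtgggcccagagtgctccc
ADAT2: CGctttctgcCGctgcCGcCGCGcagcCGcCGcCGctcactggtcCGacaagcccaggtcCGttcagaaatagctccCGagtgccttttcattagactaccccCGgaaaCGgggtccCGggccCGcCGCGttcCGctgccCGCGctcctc
SFXN4: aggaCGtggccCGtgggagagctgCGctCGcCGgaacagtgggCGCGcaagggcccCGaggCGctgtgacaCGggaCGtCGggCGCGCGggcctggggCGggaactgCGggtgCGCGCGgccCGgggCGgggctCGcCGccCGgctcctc
TDRD9: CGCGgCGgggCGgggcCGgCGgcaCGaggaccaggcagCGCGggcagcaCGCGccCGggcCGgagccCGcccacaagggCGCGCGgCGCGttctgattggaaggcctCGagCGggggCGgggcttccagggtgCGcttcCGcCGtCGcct
The window of GZMA holds 0 CpG, that of CD244 holds 1, and those of CNR2 and MYO7B hold 3 each. In ADAT2, the mitochondrial sideroflexin gene SFXN4 and the helicase gene TDRD9, the same length holds 20, 25 and 26.

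Over the 250 bases before the start of the canonical transcript, the observed CpG number divided by that expected from the C and G content had a median of 0.419 in the 115 members with a window and 0.836 in the genes tested. A ratio under 0.5 was found in 64 of 115 members (55.7%) and in 15.2% of the genes tested, and in protein-coding genes in 48.4% and 7.21%. The rule did not use this measure, and no test was made, since genes are not replicates. In genes 2-fold to 4-fold lower with JQ1 in both comparisons, 24% of 493 had a ratio under 0.5. In genes within 2-fold in both it was 12.9% of 9376, and in genes at least 2-fold higher in both 23.3% of 245. Among protein-coding genes these shares were 18.2%, 5.68% and 9.09%.

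The CpG content differed between roles. All 4 CD1 genes, 13 of 14 lymphocyte receptors and ligands, 8 of 10 effectors and 19 of 22 noncoding RNAs and pseudogenes had a ratio under 0.5. The exception among the receptors and ligands was CD40LG at 0.674, and the effectors at or above 0.5 were GZMK and OAS3. In contrast, 1 of 11 metabolic enzymes and carriers (NDST3), 2 of 12 signalling genes (DOK2 and SLA2) and 0 of 5 genes for RNA modification and import were under 0.5. The remaining roles were mixed, with 6 of 10 genes known from other tissues, 6 of 13 other protein-coding genes, 3 of 5 genes for cytoskeleton and membrane, 2 of 8 for recombination and transcription (RAG1 and HEMGN) and not the cyclin gene CCND2. The roles were assigned by hand from the gene names after the values were seen.

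Short motifs in the same windows were counted as letters on both strands, save TATAAA, counted on the transcribed direction alone. The RUNX letters TGTGGT were in 16.5% of the members and 7.78% of the genes tested, the GATA letters AGATAA in 7.83% and 4.94%, the AP-1 letters TGANTCA in 7.83% and 3.15%, and the E-box letters CAGNTG in 47.0% and 34.9%. The ETS letters CCGGAA, which contain a CpG, were in 8.70% and 26.2%, the CRE letters TGACGTCA, which also contain one, in 0.870% and 2.90%, and TATAAA in 7.83% and 3.84%. In windows with a CpG ratio under 0.5, RUNX letters were in 28.1% of 64 members and 16.6% of 1728 genes tested, and GATA letters in 12.5% and 12.7%. In the same windows TATAAA was in 10.9% and 9.90%, AP-1 letters in 10.9% and 7.93%, E-box letters in 56.3% and 49.8%, ETS letters in 0% and 7.18% and CRE letters in 0% and 0.289%. A match is no proof of a bound site.

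Each autosome and the X chromosome held at least 1 member. Chromosome 1 held 22 (18.3%), against 10.2% of the genes tested. The gene span in the files had a median of 14.8 kb, against 26.3 kb, and in protein-coding genes alone of 24.7 kb, against 33.3 kb. Starts within 250 kb of another member were found for 18 members in 8 places, which hold the CD1 genes, RAG1 with C11orf74, GZMK with GZMA, CXorf49 with CXorf49B, SLA2 with TGIF2-C20orf24, LINC01226 with RP11-439L8.5, RP11-678G14.3 with RP11-420K14.1, and LINC00977 with ENSG00000253926. How often genes tested lie this close to one another was not computed, so the 18 cannot be called more or fewer than usual. CXorf49 and CXorf49B cannot be fully separated by their reads, and SLA2 and TGIF2-C20orf24 share exon bases on opposite strands. The span of the noncoding CCDC26, with 97, 0, 97 and 0 counts, encloses ENSG00000253926 on the other strand. LINC01226 had 379, 17, 191 and 11 counts and RP11-439L8.5 19, 1, 11 and 1. LINC00977 had 331, 22, 240 and 31.

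The gene tested nearest to a member, by the distance between the lower coordinates of both genes, was often lower with JQ1 as well. This measure ignores strand and overlap, so TRAF6 and not the overlapping RAG2 is nearest to RAG1. The gene nearest by this measure was taken for each member. That nearest gene was at least 2-fold lower in both comparisons for 34 of 120 members (28.3%), against 5.21% over all genes tested. Some of these nearest genes are members themselves, so the rule fixed their fall. Where the nearest gene was no member, the share was 19.6%. Where it also shared no exon bases with the member, the share was 17 of 96 (17.7%). These 17 include KB-208E9.1, whose nearest gene IGLL1 met both limits and was left out by name. The share without shared exon bases was not computed over all genes tested. Examples, chosen after their values were seen, are GBP3 next to GBP1 with ratios of -1.21 and -1.45, and the nucleolar gene RPF2 next to GTF3C6 with -1.38 and -1.39. KCNA3, a potassium channel of T cells, is nearest to RP11-284N8.3 and had -1.46 and -1.71. The exons of RP11-284N8.3 are not in GENCODE release 44, so shared exon bases could not be checked for that pair. For CST7, in contrast, the nearest gene APMAP had 0.32 and 0.50.

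With PHA alone, most members moved little. In DMSO-treated cells, 8 members were at least 2-fold higher with PHA (6.67%, against 2.1% of the genes tested) and 7 at least 2-fold lower (5.83%, against 1.19%), and the median log2 ratio was -0.12. In JQ1-treated cells, 5 were higher (4.17%, against 1.04%) and 3 lower (2.50%, against 1.03%), with a median of 0.05. These comparisons use the same libraries as the rule that chose the members, which sets floors on the DMSO libraries, and the JQ1 libraries hold few counts for them.

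The largest rise was in CD40LG, the ligand by which activated T cells stimulate CD40, apart from the noncoding RP5-1028K7.2. CD40LG had 165 counts with DMSO, 26 with JQ1, 1855 with DMSO and PHA and 81 with JQ1 and PHA. PHA raised it 10.7-fold (9.16 to 12.7) without JQ1 and 3.29-fold (2.09 to 5.34) with JQ1, and the library with JQ1 and PHA stayed below that with DMSO alone. RP5-1028K7.2 had 22, 0, 298 and 5 counts. The flippase gene ATP9A had 809, 61, 4623 and 163, a rise of 5.46-fold (5.07 to 5.89) without JQ1 and of 2.82-fold (2.09 to 3.85) with JQ1. PLCH1, a phospholipase C, had 194, 24, 861 and 27, 4.24-fold (3.63 to 4.98) and 1.19-fold (0.660 to 2.15) higher with PHA. The keratin gene KRT1 had 50, 3, 202 and 0. GNG4, TDRD9 and CST7 were the other members past 2-fold, at 3.05-, 2.61- and 2.12-fold. With JQ1, the readthrough genes TGIF2-C20orf24, from 0 to 5 counts, and PPAN-P2RY11, by 3.83-fold (2.57 to 5.86), were also higher with PHA.

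Lower with PHA were RAG1, by 3.64-fold (3.48 to 3.81) without JQ1 and 3.33-fold (2.88 to 3.87) with JQ1, and C11orf74, by 5.08-fold (3.89 to 6.70) without JQ1. TSHR was 2.35-fold lower (2.13 to 2.60), CTSG 2.21-fold (1.87 to 2.63) and BMP10 2.23-fold (1.69 to 2.95), each without JQ1, as were LINC01226 at 2.08-fold and CXorf49B at 2.09-fold. With JQ1, RAG1 was joined by FAM229A, at 2.94-fold (1.71 to 5.32), and by CTA-246H3.12, with 8 and 2 counts. RAG1 thus had its lowest level, an FPKM of 1.18, with JQ1 and PHA together, and its highest, 42.9, with DMSO.

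**Figure D4:**
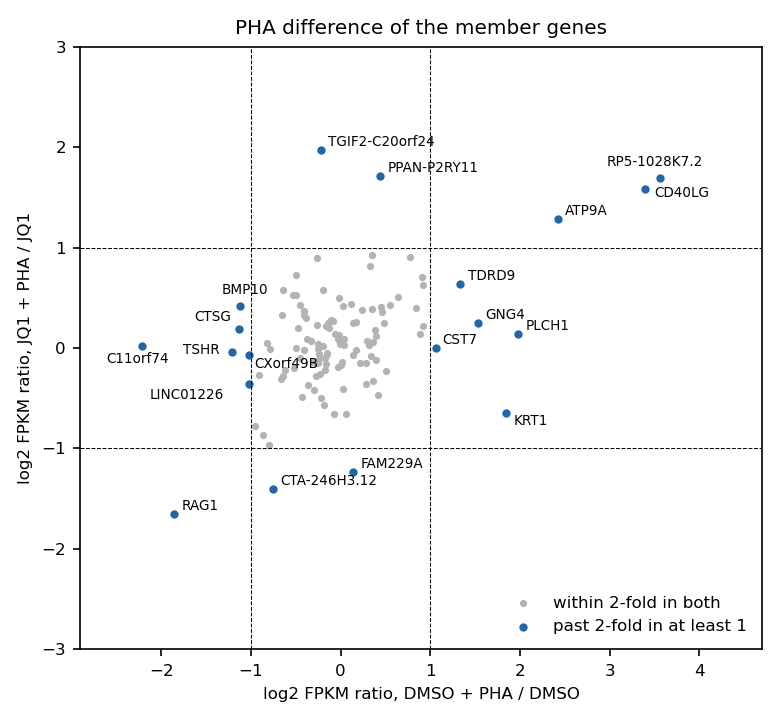
Each point is a member, placed by its log2 FPKM ratio of PHA to no PHA in DMSO-treated cells (x axis) and in JQ1-treated cells (y axis), with dashed lines at 2-fold. CD40LG, ATP9A and RP5-1028K7.2 are past 2-fold higher on both axes and RAG1 is past 2-fold lower on both.

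Set against lists of T-cell genes, the members were most frequent among genes of the pre-TCR, recombination and the thymocyte stage, with 5 of 16 tested (31.3%, against 1.06% overall), namely CD1A, CD1B, CD1C, CD1E and RAG1. The median log2 ratio of that list was -1.21 without PHA and -1.38 with PHA. Costimulatory, inhibitory and activation receptors gave 4 of 19 tested (TNFRSF4, CD40LG, CD84 and CD2), with medians of -0.69 and -1.21. Proximal T-cell receptor signalling gave 2 of 49 (DOK2 and RASGRP2), small GTPase and G-protein signalling 2 of 41 (GNA15 and P2RY8), and chemokine receptors, integrins and homing 1 of 18 (PECAM1). Among 32 T-lineage and leukaemia transcription factors, 24 genes of cytokine signalling, 19 of the actin cytoskeleton, 20 of apoptosis and 3 of MHC class II tested, 0 were members. The median ratio of the transcription factors was 0.12 without PHA and -0.11 with PHA. CD2 was the member among the 11 T-lymphoblast markers, whose median was -0.75 and -0.69.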

How the data were processed

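RNA-seq of Jurkat cells in 4 conditions was analysed, with 1 library per condition, grouped by the labelled treatment. The deposited files hold unnormalized read counts per gene and the FPKM that the authors computed, on GRCh38. The paper's methods name Hisat2 2.0.4, and the submitters' processing notes name TopHat2 2.0.9 and Cufflinks 2.1.1. The library kit differs between labels and paper, and the counting program, its strand setting and its treatment of multi-mapped reads are not given in the sources used here. Log2 ratios of FPKM were computed with a pseudocount of 0.1, which understates the change of low genes, for genes averaging 1 FPKM or more. Folds of single genes are ratios of shares of counts with 95% exact intervals, and PCR reads without molecular identifiers are not independent molecules, so that intervals and floors cover counting error only. A fold against 0 counts was set against 3 counts a library and is given as a lower bound.

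Members, roles and lists were chosen with earlier results of these data known. Named genes are the 12 members with the largest falls, the 8 with the highest DMSO levels, the 5 largest PHA rises and falls, members within 250 kb of another, members on the lists, the genes next to the limit, and HEXIM1. Other named genes were chosen after their values were seen. Positions, biotypes and exons were taken from GENCODE release 44, in which 49659 of the 50868 identifiers were found, and upstream windows from its canonical starts. Of the 120 members, 72 were in the RefSeq promoter table. Alternatives were the pseudocount, filter, fold, scaling, centring and gene class, and steps were tested on simulated data. Python 3.11.15 (numpy 2.4.6, pandas 2.3.3, scipy 1.17.1, matplotlib 3.10.9) and R 4.3.3 (edgeR 4.0.16 and DESeq2 1.42.0, for scaling factors of the counts only) were used.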

Additional observations from a re-analysis of the deposited data

How the results depend on the processing

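Scaling by TMM factors, by DESeq2 size factors or by median centring gave 114, 113 and 118 members against 120, and protein-coding genes alone gave 93. The pseudocount, the filter and the fold moved the count more. A pseudocount of 1 gave 32 members, with 65 genes past 4-fold without PHA and 75 with PHA, against 197 and 199. A minimum mean FPKM of 0.1 gave 216 members, 512 genes and 541 genes, and a minimum of 5 gave 34, 54 and 56. At 3-fold the counts were 203, 357 and 320, and at 8-fold 38, 64 and 66. The upper bound of the interval gave 87, and a pseudocount of 0.01 gave 133. Of the members, 15 were past 2-fold with PHA in DMSO-treated cells and 8 in JQ1-treated cells. With a minimum of 5 these were 3 and 3, and in JQ1-treated cells 1 with a pseudocount of 1 and 19 with 0.01. The cause was not tested. With a pseudocount of 1, the median ratio of the members was -1.87 without PHA and -1.85 with PHA. For 47 of the named members, every log2 ratio in the JQ1 comparisons stayed past 4-fold under the scalings tried. With a pseudocount of 1 the ratio did so for 30 without PHA and 27 with PHA. These 47 leave out the members named as just inside the limit, whose smaller falls ranged from -2.01 to -2.03. The result under the scalings therefore does not cover the members closest to 4-fold. No median ratio of the members turned its sign, whereas the median of all genes, -0.01 without PHA and -0.02 with PHA, became 0.01 and 0.03 with TMM factors and 0.03 and 0.04 with DESeq2 size factors. Leaving out members whose exons overlap another counted gene gave 92, and a minimum of 20 counts in both DMSO libraries gave 119, both chosen after seeing the data. No paired analysis was possible because each condition is 1 library and the labels number no replicates, so that none could be left out either, and an additive fit of JQ1 and PHA over the 4 libraries was not run, since these values chose the members. With 13 members at 3 counts or fewer with JQ1 and 14 with JQ1 and PHA, depth limits the size of their falls.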
